A study of Saccharomyces cerevisiae with 11 samples.

Results

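The peptides described here are the 300 members of a designed set of random sequences built from glycine (G), tryptophan (W), arginine (R) and aspartate (D). They were taken by the set name given in the deposited count table, GWRD-random, from 12400 library entries in all, by a rule that uses no measured value. Each is 20 residues long, no sequence occurs more than once among them, and 0 are shared with another set. The library was tested for transcriptional activation in Y2H Gold yeast, whose reporter gives an active peptide's host cell resistance to the antifungal aureobasidin A, so that cells carrying it keep dividing. DNA recovered from the cells was sequenced, and the count of reads per designed sequence was the measurement.

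All cultures were Y2H Gold in synthetic medium lacking tryptophan, diluted daily. The 11 samples were the cultures labelled 150 aureobasidin at 12, 24, 48 and 72 h (the 150 arm), those labelled 200 aureobasidin at the same 4 times (the 200 arm), the untreated cultures at 12 and 24 h, and the culture at 0 h. The dose is printed without a unit, because the sample fields and the growth protocol give different ones, and that protocol describes antibiotic for every sample; the groups here follow the titles. Each sample held 5 barcoded sub-libraries, numbered 1 to 5, which the series text calls biological replicates. Whether they came from separate cultures is not said in the labels, so the p-values measure the spread between these sub-libraries, which may be technical. Every later time was set against the same 0 h libraries, so the comparisons are not independent of each other.

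Transcriptional activation domains are short, mostly disordered stretches that recruit coactivators to a promoter. They are typically rich in acidic residues and hold scattered aromatic or large hydrophobic ones, and the acidic residues are thought to keep the hydrophobic side chains exposed to solvent. In this alphabet tryptophan is the large aromatic residue, aspartate carries a negative charge, arginine carries a positive charge, and glycine is small and flexible.

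Peptides are called by their number in the deposited table and described by their residues; positions are counted from 1 at the N terminus. Peptide 12116 (10 tryptophans, 7 aspartates, 1 arginine, net charge -6, longest tryptophan run 3) was the member with most reads at 72 h in both antibiotic arms. Peptide 12256 (7 tryptophans, 6 aspartates, 1 arginine) was the most abundant at 0 h, and peptide 12252 (7 tryptophans, 7 aspartates, 1 arginine, longest tryptophan run 1) has no tryptophan beside another. Peptides 12196 and 12244 share 5 tryptophans, 7 aspartates and 1 arginine in different orders. Peptide 12357 (7 tryptophans, 7 aspartates, no arginine) holds its tryptophans almost entirely in a run of 6, and peptide 12260 (8 tryptophans, 1 aspartate, 7 arginines, net charge 6) is strongly positive. Peptides 12196, 12357, 12260, 12149, 12137, 12177 and 12253 were singled out after their values had been seen.

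The random set covers compositions broadly. A peptide held 5.04 ± 1.95 tryptophans (1 to 12), 4.92 ± 1.93 aspartates (0 to 10), 4.85 ± 1.88 arginines (0 to 10) and 5.19 ± 1.98 glycines (0 to 10; mean ± SD over 300 peptides). Net charge, counted as arginines minus aspartates, ran from -9 to 7 with a median of 0; 132 peptides were negative, 37 neutral and 131 positive. The number of places where a tryptophan stands next to an aspartate in either order, called W-D pairs here, averaged 2.32 and reached 9, and the longest unbroken run of tryptophans was 1 to 6 residues. There were 198 distinct compositions, of which 139 had 1 member.

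Library totals ran from 683589 to 3392656 counts, and the members drew 132192 reads at 0 h. Values are given as CPM, reads per 1e+06 reads of the library, so they are shares of the pool and fall when other sequences gain. With no read in the 5 libraries of a group, the limit of 3 counts allows up to 0.387 CPM at 0 h, 0.600 CPM at 24 h in the 150 arm, 0.302 CPM at 72 h in that arm and 0.234 CPM at 72 h in the 200 arm; such limits cover counting error only, because copies made by PCR are not independent molecules. At 0 h 290 members had a read in at least 3 of 5 libraries and 7 had none. Only 85 averaged at least 50 CPM there, and their abundance was uneven between barcodes, with a median ratio of 9.92 between the highest and lowest library among the 82 read in all 5. The same barcode number tended to hold the same members at every time, as described under the processing, and a fit with the barcode number as a block is given wherever it alters a call.

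The share of the pool held by the set was below its 0 h value in every arm. Of all reads, members held 1.74 ± 0.235% at 0 h, and untreated cultures held 1.20 ± 0.263% at 12 h and 1.23 ± 0.289% at 24 h (SD, n = 5 each). In the 150 arm the share was 1.02 ± 0.250%, 0.657 ± 0.210%, 0.408 ± 0.191% and 0.191 ± 0.134% at 12, 24, 48 and 72 h. For the 200 arm it was 1.12 ± 0.287%, 0.681 ± 0.197%, 0.294 ± 0.146% and 0.0873 ± 0.0621% at those times. A handful of members came to make up most of what remained. The most abundant peptide held 5.07% of the set's reads at 0 h, 30.6% at 24 h and 58.4% at 72 h in the 150 arm, and 65.4% at 72 h in the 200 arm. The 5 most abundant held 17.0% at 0 h, 75.9% at 24 h and 97.9% at 72 h in the 150 arm.

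More members were still read in the 200 arm than in the 150 arm at every time. A read in at least 3 of 5 libraries, called retention here, was found for 200, 25, 18 and 11 members at 12, 24, 48 and 72 h in the 150 arm, and for 266, 104, 172 and 98 in the 200 arm. In untreated cultures it was found for 247 members at 12 h and 223 at 24 h. Retention counts any read and was not adjusted for depth, which was lowest at 24 h under antibiotic. The 5 libraries together held 5003540 counts at 24 h in the 150 arm and 4857852 in the 200 arm. They held 9048277 in untreated cultures at 24 h, and 10219418 and 8428931 at 48 h in the 150 and 200 arms. The 153 entries that begin with a stop codon and make no peptide were also read more in the 200 arm. Their share of reads was 0.00145% at 24 h and 0 at 72 h in the 150 arm, which allows up to 0.302 CPM, 0.0558% at 24 h and 0.00428% at 72 h in the 200 arm, 0.0287% at 24 h untreated and 0.400 ± 0.0264% at 0 h. Of these 153 entries 52 were still retained at 72 h in the 200 arm. The 268 members outside the class of net charge -3 or lower and at least 5 tryptophans summed to 981 CPM at 24 h and 80.7 CPM at 72 h in the 200 arm, where stop-first entries summed to 557.7 and 42.8 CPM. The first sums run over 268 members and the second over 153 entries, so they do not show a higher level per member. Retention is described below for the 150 arm, where stop-first entries had almost no reads.

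Compared with 0 h, most members that could be tested had lost share by 24 h under the antibiotic. At 24 h in the 150 arm, edgeR called 236 of 251 tested members lower and 0 higher, against 72.6% lower and 0.757% higher among all tested sequences of the library (7.49% higher with the block). The median log2 change of the tested members was -8.14, or -5.69 when the 200 members with no read are set at their limit, beside -7.36 and -4.94 over all tested sequences. TMM scaling and DESeq2 also gave 0 higher, whereas the block gave 4, named below. In each comparison where edgeR called 0 members higher, 0 were higher at an unadjusted p under 0.05 as well. In the 200 arm at that time, 138 of 257 were called lower and 0 higher, beside 39.5% and 0.456% of all tested sequences; with the block 230 were lower and 4 higher, beside 70.6% and 7.43%. TMM scaling and DESeq2 gave 0 higher there, and TMM 68 lower. In that arm 46 members had no read, and the median was -3.50, or -3.53 at the limit, beside -2.76 and -2.79 over all.

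By 72 h nearly all tested members had fallen. In the 150 arm, 249 of 251 were lower and 1 was higher, against 88.6% and 1.96% of all tested sequences. For the 200 arm, 252 of 253 were lower and 0 higher, against 91.2% and 1.88%, and the block, TMM scaling and DESeq2 each called 1 higher; the block called 3.44% of all sequences higher. The medians were -8.97 in the 150 arm, or -6.90 with 234 unread members at their limit, and -6.84 in the 200 arm, or -6.99 at the limit with 21 unread. Over all tested sequences the medians in the 150 arm were -8.40 and -6.47, and in the 200 arm they were -6.65 and -6.73.

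Set against untreated cultures of the same age, fewer members had enough reads to be tested. At 24 h in the 150 arm, 67 of 91 were lower and 0 higher, where 37.7% of all tested sequences were lower and 0% higher; the median log2 difference was -7.20, or -4.87 with 49 unread members at their limit, beside -1.81 over all. The block called 2 higher, and 19.2% of all sequences. In the 200 arm of the same age, 16 of 107 were lower and 0 higher beside 8.07% and 0%, with a median of -2.22 beside -1.02 over all. With the block these were 49 lower and 2 higher, beside 34.9% and 16.8%. The 16 lower calls became 0 in each fit that left out a barcode. TMM scaling and DESeq2 gave 0 higher in both arms.

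The set also lost share in the untreated cultures. Of the tested stop-first entries, 99 of 124 were called lower at 24 h untreated than at 0 h, with a median log2 change of -4.13. The cause of these losses was not tested. At 24 h in untreated cultures 85 of 256 tested members were called lower than at 0 h and 0 higher, beside 26.7% and 0% of all tested sequences, with a median log2 change of -2.48 against -1.87 over all. The block gave 229 lower and 10 higher, beside 74.6% and 9.12%. TMM scaling, which moves the median of all sequences up by 1.26 in this comparison, left 14 lower calls and 0 higher, DESeq2 gave 55 and 1, and a minimum mean of 50 counts left 0 lower.

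A single member was called higher than 0 h by edgeR on total counts without the block. Peptide 12116 holds 9 W-D pairs, and its single arginine stands at position 19. In barcodes 1 to 5 it had 827.1, 3332, 552.5, 636.6 and 213.5 CPM at 72 h in the 150 arm, against 200.3, 817.5, 112.2, 124.2 and 46.5 CPM at 0 h. Barcode 2 was the highest of both groups, and the groups overlapped, but each barcode was 4.08 to 5.13 times higher at 72 h than at 0 h. The log2 change was 2.10 (SE 0.90, edgeR adjusted p = 0.0325, higher in 5 of 5 barcodes), and 2.18 with the block (adjusted p = 2.87e-07). The call was lost without barcode 1, 3 or 4 (adjusted p = 0.0673, 0.0689 and 0.0617) and with all groups in 1 fit (0.0518).

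Over time this peptide averaged 260 ± 316 CPM at 0 h, 757 ± 1017 CPM at 24 h, 1320 ± 1568 CPM at 48 h and 1112 ± 1261 CPM at 72 h in the 150 arm. In the 200 arm it averaged 683 ± 927 CPM at 24 h and 571 ± 603 CPM at 72 h, and untreated cultures had 386 ± 505 CPM at 24 h. At 72 h in the 200 arm its libraries held 456.9, 1624, 276.2, 380.3 and 116.6 CPM, each 1.99 to 3.06 times the same barcode at 0 h. That change was not called without the block (log2 1.13, SE 0.85, edgeR adjusted p = 0.197) and was called with it (1.28, adjusted p = 6.74e-09). TMM scaling and DESeq2 also called it (log2 5.80 and 3.88).

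Another 3 members were called higher at 24 h in the 150 arm with the block, and none of them was above 0 h on average at 72 h. Peptide 12256 has 7 W-D pairs. It had 662.1, 3240, 2094, 3598 and 449.5 CPM at 24 h in the 150 arm, against 490.0, 1295, 923, 1471 and 233.1 CPM at 0 h. Every barcode was 1.35 to 2.50 times higher, although the groups overlapped (log2 1.19, edgeR adjusted p = 0.168, and 1.04 with the block, adjusted p = 0.000209). It was also above 0 h in every barcode of the untreated cultures at 24 h, by 1.68 to 1.96 times (block log2 0.88, adjusted p = 9.78e-14; without it 0.91, adjusted p = 0.397). At 72 h it averaged 438 ± 316 CPM in the 150 arm (log2 -1.01, adjusted p = 0.211, and -1.11 with the block, adjusted p = 9.73e-05), and 116 ± 90.0 CPM in the 200 arm, where it fell by 2.92 on the log2 scale (adjusted p = 0.00146).

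Peptide 12252, with 5 W-D pairs and no W-W pair, was more even over barcodes. Its libraries held 974.1, 718.0, 528.4, 1081 and 912.5 CPM at 24 h in the 150 arm, against 554.2, 397.5, 373.9, 712.2 and 718.4 CPM at 0 h. All 5 barcodes were higher (log2 0.61, edgeR adjusted p = 0.405, and 0.62 with the block, adjusted p = 0.00223). In untreated cultures at 24 h it averaged 552 ± 115 CPM, close to its 551 ± 165 CPM at 0 h, and the block also called it higher at 24 h in the 150 arm than in those cultures (log2 0.59, adjusted p = 0.00274). At 72 h in the 150 arm it had 200.7, 131.8, 140.4, 260.1 and 232.3 CPM, below every 0 h library (log2 -1.51, adjusted p = 0.0385), a call lost whenever any 1 barcode was left out.

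Peptide 12386 is 1 of 2 members with no arginine, and it has few W-D pairs, 2 in all. It had 171.2, 61.0, 517.7, 510.8 and 3027 CPM at 24 h in the 150 arm, against 134.8, 58.5, 328.5, 274.3 and 1369 CPM at 0 h. Most of its reads lay in barcode 5 at both times, and the change was called with the block alone (log2 0.64, adjusted p = 0.00645; without it 0.99, adjusted p = 0.403). At 72 h in the 150 arm it averaged 68.9 ± 89.7 CPM, against 433 ± 534 CPM at 0 h, and it fell by 2.65 on the log2 scale (adjusted p = 0.0155).

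These same 4 peptides were the ones the block called higher at 24 h in the 200 arm. The pair that it called higher than untreated cultures at 24 h, in either arm, was peptide 12116 and peptide 12252. All 10 members that it called higher in untreated cultures at 24 h than at 0 h held at least 7 tryptophans and at least 5 aspartates, and their net charge lay between -6 and -2. TMM scaling moves the median of all sequences by 0.143 at 24 h and 0.718 at 72 h in the 150 arm, and by 1.04 and 4.40 at those times in the 200 arm. Under it peptide 12252 had log2 changes of 0.03 at 72 h in the 150 arm and 1.18 in the 200 arm, and peptide 12256 had 0.46 and 1.57, in place of the negative values above. DESeq2 moves that median by 0.466 to 2.40 in the comparisons with 0 h.

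Other members abundant at 0 h fell further. Peptide 12381, among the 3 most abundant members at 0 h, has 6 W-D pairs and 2 arginines. It had 356.7, 199.7, 139.9, 1519 and 20.2 CPM at 24 h in the 150 arm, against 532.1, 429.9, 138.8, 2002 and 53.5 CPM at 0 h. Its mean was 24.6 CPM at 48 h and 1.07 CPM at 72 h, the latest value resting on 3 libraries, and it fell by 9.20 on the log2 scale at 72 h (edgeR adjusted p = 5.16e-06). Peptide 12170, with 8 tryptophans and 7 aspartates, averaged 455 CPM at 0 h and 518, 285 and 54.9 CPM at 24, 48 and 72 h in the 150 arm, and fell by 3.05 at 72 h (adjusted p = 0.00207). Like the peptide that rose, peptide 12149 has 9 W-D pairs. It holds 8 tryptophans, 6 aspartates and 3 arginines, at a net charge of -3. Its mean was 406 CPM at 0 h, 158 CPM at 24 h and 0.0713 CPM at 72 h in the 150 arm.

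Members retained at 24 h in the 150 arm were mostly acidic and poor in arginine. The classes in the next paragraphs were cut after values had been seen, so they are given as counts with no test. Of the 25 retained members, 21 were among the 64 with a net charge of -3 or lower, 3 among the 68 at -2 or -1 and 1 among the 168 at 0 or higher. The shares were 32.8%, 4.41% and 0.595%. Step by step, retained members numbered 5 of 8 at -6, 7 of 13 at -5, 4 of 14 at -4, 5 of 23 at -3 and 3 of 37 at -2. At -7 and -9, the most acidic end, it was 0 of 5 and 0 of 1, but the member at -9 was read in no library of any group. The 7 members with no read at 0 h are included in these counts. By arginine count, 1 of 2 peptides with none were retained, 7 of 11 with 1, 6 of 18 with 2, 8 of 35 with 3, and 3 of 234 with 4 or more.

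Few acidic peptides poor in tryptophan were retained. Among the 64 peptides at -3 or lower, 20 of 32 with at least 5 tryptophans were retained, against 1 of 32 with 4 or fewer. By tryptophan count, retention was 1 of 54 at 4, 5 of 55 at 5, 4 of 59 at 6, 7 of 36 at 7 and 6 of 21 at 8, and 0 of 66 peptides with 3 or fewer were retained. By aspartate count it was 10 of 49 at 6 and 10 of 37 at 7, but 2 of 14 at 8, 0 of 8 at 9 and 0 of 4 at 10. The last 4 include the unread member at -9. The retained members had medians of 7 tryptophans, 6 aspartates, 2 arginines and a net charge of -4, and the other 275 had medians of 5, 5, 5 and 0.

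Starting abundance moved with retention: the retained members had a median of 233 CPM at 0 h (65.5 to 882) and the others 30.8 CPM. Among the 85 members with at least 50 CPM at 0 h, which hold all 25 retained ones, retention was 21 of 31 at a net charge of -3 or lower, 3 of 23 at -2 or -1, and 1 of 31 at 0 or higher. At -3 or lower it was 20 of 25 with at least 5 tryptophans and 1 of 6 with fewer. The part of starting abundance in the classes was not tested beyond this split. By 72 h in the 150 arm the 11 retained members all had a net charge of -3 or lower, at most 3 arginines and at least 5 tryptophans.

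The reads were divided between the classes in the same way as the peptides. The 64 members at -3 or lower held 98.4 ± 0.812% of the set's reads at 24 h in the 150 arm, 75.7 ± 6.36% in untreated cultures of that age and 48.0 ± 6.60% at 0 h (SD, n = 5 each). The 62 members at 3 or higher held 0.130%, 2.73% and 10.97% in those groups. The 104 with 6 or more arginines held 0.196%, 4.63% and 19.0%, and the 31 with 2 or fewer held 92.8%, 57.5% and 32.6%. The members at -3 or lower held 89.1 ± 5.33% of the set's reads at 72 h in the 200 arm. The classes stood in the same order in untreated cultures as in the 150 arm.

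Inside the acidic, tryptophan-rich class, retention was counted by the arrangement of tryptophan and aspartate. Of its 58 peptides (net charge -2 or lower, at least 5 tryptophans), 10 of 11 with 6 or more W-D pairs were retained at 24 h in the 150 arm, against 13 of 47 with 5 or fewer. Among those with at least 50 CPM at 0 h it was 10 of 10 and 13 of 28. At 72 h it was 6 of 11 and 5 of 47. The exception with 9 W-D pairs was peptide 12253, with 45.3 CPM at 0 h and reads in 2 of 5 libraries at 24 h. The 17 members of the whole set with 6 or more W-D pairs held 57.7 ± 23.2% of the set's reads at 24 h in the 150 arm (20.4 to 81.6%) and 39.4 ± 8.89% in untreated cultures of that age, against 20.1 ± 4.30% at 0 h (15.6 to 24.9%; SD, n = 5 each). The lowest 150 library thus lay within the 0 h range. Peptides 12116 and 12256 made up 68.6% of the summed CPM of these 17 members at 24 h in the 150 arm and 41.0% in untreated cultures, against 32.1% at 0 h.

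Peptides of identical composition differ in arrangement and starting abundance but not in residues. Of the 85 better-measured members, 22 fell into 10 such classes, and the classes did not all order the same way. The peptide with most W-D pairs had more CPM at 24 h in the 150 arm than the one with fewest in 4 classes and less in 2, the pair counts were equal in 1, and 3 classes had no read. Peptide 12196 and peptide 12244 both hold 5 tryptophans, 7 aspartates and 1 arginine, with 4 and 2 W-D pairs. The first had 673.5, 419.4, 780.5, 127.0 and 244.4 CPM at 24 h in the 150 arm and averaged 449 ± 277 CPM, against 371 ± 203 CPM at 0 h. The second had 34.3, 2.10, 2.84, 17.1 and 0 CPM at 24 h, a mean of 11.3 ± 14.5 CPM against 243 ± 140 CPM at 0 h (log2 -4.42, SE 1.20, edgeR adjusted p = 0.00268). At 72 h the first still averaged 29.5 ± 12.9 CPM and the second had no read, at least 806-fold below its 0 h mean. The arginine lies at position 9 in the first and 3 in the second, counted from the N terminus.

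Peptide 12137 and peptide 12177 share 5 tryptophans, 8 aspartates and 3 arginines. With 6 W-D pairs the first averaged 11.2 CPM at 24 h in the 150 arm, against 99.9 CPM at 0 h. With 2 W-D pairs and a run of 3 tryptophans the second averaged 0.915 CPM at 24 h, against 197 CPM at 0 h. The order was the other way among the 3 peptides with 4 tryptophans, 6 aspartates and 3 arginines, where the one with 1 W-D pair averaged 4.86 CPM at 24 h and those with 2 and 3 had no read. Peptide 12149, with 9 W-D pairs, averaged 158 CPM at 24 h in the 150 arm and a peptide of its composition with 7 pairs averaged 40.4 CPM, against 406 and 118 CPM at 0 h, whereas at 72 h they had 0.0713 and 2.06 CPM. Not every class had a retained member: the 3 peptides with 6 tryptophans, 6 aspartates and 4 arginines had 2 to 5 W-D pairs and 91.6 to 200 CPM at 0 h, and none had a read at 24 h in the 150 arm.

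Long tryptophan runs also occurred in acidic members. Peptide 12357, at a net charge of -7 with no arginine and a run of 6 tryptophans, has 1 W-D pair. It had no read in any library at 24 h in the 150 arm and averaged 89.9 CPM in untreated cultures at 24 h, against 127.8, 377.7, 119.6, 80.5 and 62.0 CPM at 0 h. In the 150 arm it was at least 256-fold below 0 h (edgeR adjusted p = 9.39e-05). Peptide 12261, with 8 tryptophans of which 5 are consecutive, averaged 19.0 CPM at 24 h in the 150 arm, against 170 CPM at 0 h, and was 1 of the 4 largest falls at 72 h in the 200 arm among members with at least 50 CPM at 0 h (log2 -10.27).

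Whether the dependence of abundance on sequence changed was tested over the 5 libraries of each group. In each library log2 CPM of the 300 members was regressed on the counts of tryptophan, aspartate and arginine, so that each slope is the log2 difference when that residue replaces a glycine, and 8 features of arrangement and position were then added to that model in turn. The slopes at each later time were compared with those at 0 h in two-sided exact permutation tests of 5 against 5 libraries. The smallest p these allow is 0.00794, which is 0.0280 after adjustment over 60 tests. At 0 h the slopes were 0.23 ± 0.03 for tryptophan, 0.19 ± 0.07 for aspartate and -0.13 ± 0.05 for arginine (SD, n = 5), so the pool was already uneven in composition. The libraries are treated as unpaired in these tests, although the barcode numbers pair them; sign flips within barcodes cannot give a p under 0.0625, and no slope below passed with them.

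The tryptophan and arginine slopes were steeper after untreated growth. At 24 h the tryptophan slope was 0.39 ± 0.03 in untreated cultures, against 0.23 ± 0.03 at 0 h, and the arginine slope was -0.30 ± 0.03, against -0.13 ± 0.05 (exact permutation adjusted p = 0.0280 for each). The aspartate slope was 0.30 ± 0.07, against 0.19 ± 0.07, which did not pass the threshold (adjusted p = 0.0922). With the set split at its median charge, the mean log2 CPM of the more positive members minus that of the more negative ones was -1.74 ± 0.17 in untreated cultures at 24 h, against -0.87 ± 0.14 at 0 h (adjusted p = 0.0280). Under antibiotic it was -0.90 ± 0.13 at 24 h in the 150 arm and -0.94 ± 0.19 in the 200 arm, which did not pass against 0 h (adjusted p = 0.777 and 0.657), and at 72 h it was nearer to 0, by 0.53 and 0.65 (adjusted p = 0.0280 for each). In the 85 members with at least 50 CPM at 0 h these 4 differences from 0 h were -2.08, -1.71, -0.25 and 0.32, so the direction at 72 h in the 150 arm turned.

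Features of arrangement were set beside 0 h at a fixed composition. At 24 h in the 150 arm each further W-D pair went with 0.31 ± 0.03 log2 CPM, against 0.17 ± 0.08 at 0 h (exact permutation adjusted p = 0.0280). In untreated cultures of that age the W-D slope was 0.30 ± 0.06 (adjusted p = 0.0649 against 0 h), and the difference between the 150 arm and untreated cultures was not tested. Each further residue in the longest tryptophan run went with -0.35 ± 0.04, against -0.17 ± 0.15 (adjusted p = 0.0280), and each W-W pair with -0.33 ± 0.03, against -0.18 ± 0.12 (adjusted p = 0.0454). An adjacent W-R pair went with -0.05 ± 0.01, against 0.10 ± 0.10 (exact permutation adjusted p = 0.0454). Each arginine went with -0.21 ± 0.03, against -0.13 ± 0.05 (adjusted p = 0.0280). The slopes for tryptophan (0.20 ± 0.04, adjusted p = 0.465) and aspartate (0.15 ± 0.04, adjusted p = 0.507) did not pass. In the 200 arm at 24 h, 0 of 11 slopes passed, and 2 had an exact permutation p under 0.05 before adjustment. Most members have no read by 24 h in the 150 arm and are then set by the prior count of 2 alone.

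The same slopes were computed in the 85 members with at least 50 CPM at 0 h. That filter uses the 0 h libraries and so helps to set their slopes, and these values are given as a description with no test. At 24 h in the 150 arm a W-D pair went with 0.57 ± 0.09, against 0.15 ± 0.12 at 0 h, a W-W pair with -0.85 ± 0.08, against -0.18 ± 0.08, and the longest run with -0.85 ± 0.15, against -0.14 ± 0.13. An arginine went with -0.64 ± 0.09, against -0.25 ± 0.13, and an adjacent D-R pair with -0.58 ± 0.06, against -0.27 ± 0.12. Tryptophan count as such had 0.34 ± 0.10, against 0.15 ± 0.10. In untreated cultures at 24 h the W-D slope in these members was 0.35 ± 0.12, the tryptophan slope 0.29 ± 0.09 and the arginine slope -0.53 ± 0.15, against the same 0 h values. In the 200 arm at 24 h, the W-W slope was -0.60 ± 0.23, that of the longest run -0.57 ± 0.26 and the W-D slope 0.45 ± 0.11.

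At 72 h the slopes over all 300 members were nearer to 0 for tryptophan and aspartate, with few members read. In the 150 arm the tryptophan slope was 0.09 ± 0.01, against 0.23 ± 0.03 at 0 h, and the aspartate slope was 0.06 ± 0.01, against 0.19 ± 0.07 (exact permutation adjusted p = 0.0280 for each). In the 85 better-measured members both differences had the opposite sign, 0.07 and 0.03, so no direction is read from the slopes at that time. The W-W and longest-run slopes over all 300 members differed from 0 h by 0.02 and -0.01 and did not pass (adjusted p = 0.777 and 0.920).

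Slopes on position are given per residue of mean position, so their sizes cannot be set against those per pair. For each residue by which the mean position of the aspartates lay further from the N terminus, log2 CPM differed by -0.09 ± 0.02 in untreated cultures at 24 h, against -0.02 ± 0.02 at 0 h (exact permutation adjusted p = 0.0280), and by -0.04 ± 0.01 at 24 h in the 150 arm (adjusted p = 0.0454). The mean position of arginine went with 0.05 ± 0.01 at 24 h in the 150 arm and 0.05 ± 0.02 in the 200 arm, against 0.03 ± 0.03 at 0 h. Neither passed (adjusted p = 0.159 and 0.309). At 72 h it was 0.07 in the 150 arm, which passed (adjusted p = 0.0280), and 0.05 in the 200 arm, which did not (0.0922). In the 85 members with at least 50 CPM at 0 h, with no test, it was 0.02 at 0 h and 0.03 in untreated cultures. There it was 0.14 and 0.12 at 24 h and 0.18 and 0.13 at 72 h in the 150 and 200 arms. The tryptophan-position slope over all members was 0.01 and 0.02 at 72 h in the 150 and 200 arms, against 0.05 at 0 h. Both passed (exact permutation adjusted p = 0.0280 and 0.0454). In the 85 members these differences from 0 h were -0.004 and 0.007, with no test, so no direction is read from them.

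Among members with at least 50 CPM at 0 h, the 4 largest falls called in untreated growth were peptides with 6 to 9 tryptophans and 3 to 8 arginines; less abundant members had larger fitted falls. Peptide 12354, with 9 tryptophans, 4 aspartates and 4 arginines, averaged 2.61 ± 1.93 CPM in untreated cultures at 24 h, against 87.9 ± 33.7 CPM at 0 h (log2 -5.04, SE 1.08, edgeR adjusted p = 0.00633). Peptide 12183 had 2.14 CPM, against 50.3 CPM (log2 -4.51, adjusted p = 0.0174), peptide 12257 3.10 CPM, against 50.1 CPM (-3.94, adjusted p = 0.0325), and peptide 12289 6.60 CPM, against 88.9 CPM (-3.75, adjusted p = 0.0130). All 4 had 0 reads at 24 h in the 150 arm, at least 147-, 83.9-, 83.6- and 148-fold below 0 h. The call of peptide 12257 was lost in 4 of the 5 fits that left out a barcode (log2 -6.24 to -3.35), and that of peptide 12183 without barcode 3 (adjusted p = 0.0571). Under TMM scaling peptide 12354 changed by -3.78 in untreated cultures (adjusted p = 0.0481).

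Some peptides lost little or no share in untreated cultures and fell in the antibiotic arms. Peptide 12181, with 9 tryptophans and 3 arginines, averaged 374 CPM in untreated cultures at 24 h, against 248 CPM at 0 h, and was among those the block called higher there. In the 150 arm it had 49 reads over the 5 libraries at 24 h and none at 72 h, at least 821-fold below 0 h. Peptide 12263 (2.23 CPM at 24 h, against 279 CPM at 0 h) and peptide 12130 (8.44 CPM, against 219 CPM) also had no read at 72 h in the 150 arm, at least 924- and 726-fold below 0 h. In untreated cultures at 24 h they averaged 201 and 203 CPM, and peptide 12244 averaged 194 CPM; peptides 12263 and 12244 were below 0 h in all 5 barcodes there, without a call unless the block was used. Together these are the 4 largest fitted falls at 72 h in the 150 arm among members with at least 50 CPM at 0 h. All 4 were unread there, so their rank follows their abundance at 0 h. Over the 251 tested members that log2 change had a Spearman correlation of -0.779 with CPM at 0 h. In the 200 arm the largest falls among those members, beside peptide 12261, were peptide 12190 (log2 -10.22), peptide 12280 (-9.84) and peptide 12128 (-9.54). In untreated cultures at 24 h peptide 12190 already averaged 21.7 CPM, against 72.6 CPM at 0 h, whereas peptide 12280 averaged 248 CPM, against 195 CPM.

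No member with the most tryptophans, aspartates or arginines, or at either end of net charge, was retained at 24 h in the 150 arm. The member with most tryptophan, peptide 12184 with 12, had 0.120 CPM in untreated cultures at 24 h, against 7.79 CPM at 0 h. Peptide 12124, 1 of 4 members with the most aspartates, 10, had 3.45 CPM in untreated cultures, against 33.7 CPM (log2 -3.22, edgeR adjusted p = 0.0457). Peptide 12346, 1 of 2 members with the most arginines, 10, and at a net charge of 7, had 2.58 CPM, against 28.0 CPM (-3.41, adjusted p = 0.0430). These calls were lost in 4 and 5 of the 5 fits that left out a barcode, with log2 changes of -5.06 to -2.54 and -4.07 to -3.11. All 3 had no read at 24 h in the 150 arm. The most acidic member, peptide 12298 at -9, was read in no library of any group, so nothing can be said of its activity. In the most populated composition class, 5 tryptophans, 4 aspartates and 6 arginines, all 7 tested members had 0 CPM at 24 h in the 150 arm, and at 72 h in the 200 arm their log2 changes lay between -4.77 for peptide 12360 and -7.73 for peptide 12264.

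Peptide 12260 is the retained member that goes against the rest in charge, with 8 tryptophans, 7 arginines, 1 aspartate and a net charge of 6. It had 0.951, 2.10, 0, 0 and 14.6 CPM at 24 h in the 150 arm, against a mean of 82.8 ± 32.5 CPM at 0 h, and most of its reads were in barcode 5. It fell by 4.53 on the log2 scale (edgeR adjusted p = 0.00230), and its log2 change in untreated cultures at 24 h was -3.15 (adjusted p = 0.0429), a call lost in 4 of the 5 fits that left out a barcode (highest adjusted p = 0.118).

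The library also holds designed grids that vary tryptophan and aspartate with arginine present (1600 peptides) or without it (1600 peptides). Retention at 24 h in the 150 arm was 25 of 300 in the random set, 88 of 1600 in the grids with arginine and 590 of 1600 in those without. In the acidic, tryptophan-rich class defined above it was 23 of 58 in the random set, 72 of 189 in the grids with arginine and 569 of 907 in those without. With 4 or fewer tryptophans at the same charge it was 1 of 43, 2 of 126 and 20 of 645. The differences between these sets were not tested. The difference in the W-D slope between 24 h in the 150 arm and 0 h was 0.14 in the random set and 0.04 in the grids with arginine. Between untreated cultures at 24 h and 0 h it was 0.13 and 0.18 in those sets.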

How the data were processed

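DNA reads of the designed library were measured in 11 samples of 5 barcoded libraries. Per the file headers, the table deposited by the authors gives 1 count of reads for each library entry in each barcoded library, unscaled whole numbers; 0 columns were left unassigned to a sample. Cutadapt and STAR are named, without a role, in the submitters' processing notes, and how reads were assigned to sequences is not given in the sources used here. Growth, cloning and barcoding are per the labels' protocols, and samples were grouped by their titles.

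The set was picked for description, and the lists were chosen, with earlier results of these data known; the rule that finds its members is the set name alone. Counts were scaled to library totals (683589 to 3392656 counts). The 7 comparisons were fitted to the whole table with edgeR 4.0.16 (R 4.3.3, two-sided quasi-likelihood test), each fit holding only the libraries of the groups it compared. A sequence was tested where its mean reached 10 counts, with Benjamini-Hochberg adjustment over all tested sequences at a threshold of 0.05. The standard error of a log2 change is its size divided by the square root of the F statistic. CPM means are over the 5 libraries with their SD. A group with no read was set at 3 counts over its 5 libraries for fold limits. Retention means a read in at least 3 of 5 libraries. Slopes were ordinary least squares per library on log2 CPM, taken with a prior count of 2. Exact permutation tests were run in Python 3.11.15 with numpy 2.4.6, scipy 1.17.1 and pandas 2.3.3. The scripts were tested on simulated data with known changes.

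Named members are those called higher, the 5 most abundant at 72 h in each arm, the 4 largest falls in untreated cultures at 24 h and at 72 h in each arm that went the same way in all barcodes and had at least 50 CPM at 0 h, the 3 most abundant at 0 h, the extremes of composition and charge, and the ends of the largest composition class; others named were chosen after their values were seen. Barcode numbers were checked as pairs: deviations of log2 CPM from the group mean correlated at 0.550 to 0.910 between groups for the same number and at -0.111 or lower for other numbers, and 5 of 5 barcodes matched their own number best. Other settings tried were DESeq2 1.42.0 on its own scaling, edgeR with TMM factors, the barcode as a replicate block, a filter at a mean of 50 or none, 1 fit over all groups, each barcode left out, prior counts of 0.5 and 10, and slopes in members with at least 50 CPM at 0 h or with signs flipped within barcodes. Reads in at least 1 or in all 5 libraries as the retention rule were added after seeing the data.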

Additional observations from a re-analysis of the deposited data

Results flagged for a closer look

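A library stood apart from the other 4 of its group, by a gap whose share of the group's range passed Dixon's 95% critical value, in 27 of 138 groups of values tested; chance alone gives about 1 in 20. Peptide 12116 was highest in barcode 2 in all 11 samples, with the gap at 0.801 of the range at 0 h, 0.784 and 0.824 in untreated cultures at 12 and 24 h, 0.771, 0.766, 0.814 and 0.803 at 12, 24, 48 and 72 h in the 150 arm, and 0.792, 0.815, 0.771 and 0.774 in the 200 arm. Peptide 12386 was highest in barcode 5 in all 11 samples, with 0.794 at 0 h, 0.823 and 0.825 in untreated cultures, 0.816, 0.846, 0.805 and 0.789 in the 150 arm, and 0.818, 0.773, 0.815 and 0.843 in the 200 arm. These values are not independent, since the same barcode recurs at every time. Among the slopes the gap was 0.744 for the mean position of tryptophan at 0 h and 0.736 at 72 h in the 150 arm, 0.808 for W-R pairs and 0.888 for the longest tryptophan run at that time, and 0.838 for D-R pairs at 24 h in the 150 arm.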

How the results depend on the processing

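Counts of calls moved with the scaling, the filter on low counts and the block. In untreated cultures at 24 h, members called lower numbered 14 with TMM, 55 with DESeq2, 0 at a minimum mean of 50 and 229 with the replicate block, and members called higher 1 with DESeq2 and 10 with the block. At 24 h in the 150 arm the block called 4 higher and the minimum of 50 left 43 lower. For the 200 arm the block called 4 higher and 230 lower, TMM 68 lower and the minimum of 50 left 25. At 72 h in the 150 arm all groups in 1 fit gave 0 higher, and the minimum of 50 left 58 lower. For the 200 arm TMM, DESeq2 and the block each gave 1 higher, TMM 114 lower and the minimum of 50 left 61. Against untreated cultures at 24 h, the block called 2 higher in each arm; in the 150 arm no filter gave 136 lower and the minimum of 50 left 17, and in the 200 arm DESeq2 gave 26 lower, the minimum of 50 left 4, the block 49 and all groups in 1 fit 25. Leaving out a barcode gave 41 to 55 lower in untreated cultures, 91 to 116 lower at 24 h in the 200 arm, 0 to 1 higher at 72 h in the 150 arm, and 0 to 0 lower at 24 h in the 200 arm against untreated cultures.

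Among the slopes, sign flips within barcodes cannot give a p under 0.0625, and 4 against 4 libraries none under 0.0286, so no slope passed there. Sign flips left 0 slopes called in untreated cultures at 24 h, at 24 and 72 h in the 150 arm and at 72 h in the 200 arm, and leaving out a barcode left 0 to 0. Every slope called without pairing lost its call there. They included the charge difference (-0.87 in untreated cultures, 0.53 and 0.65 at 72 h in the 150 and 200 arms) and the changes at 24 h in the 150 arm of arginine (-0.084) and W-D pairs (0.14). Without 1 barcode these ran from -0.93 to -0.83, 0.50 to 0.59, 0.62 to 0.72, -0.10 to -0.073 and 0.11 to 0.17. A prior count of 10 at 24 h in the 150 arm gave -0.066 for tryptophan (now called), -0.032 for arginine and 0.073 for W-D pairs (no longer called), leaving 1 slope called; in the 200 arm priors of 0.5 and 10 gave 1 each, and at 72 h in that arm 0.5 gave 2. A prior of 0.5 turned the charge difference at 24 h in the 150 arm to -0.31. Members with at least 50 CPM gave charge differences of -2.08 and -1.71 at 24 h in the 150 and 200 arms, and -0.25 and 0.32 at 72 h. Slopes past the threshold in them numbered 0 in untreated cultures and 3 at 24 h in the 200 arm. At 72 h they numbered 3 and 1 in the 150 and 200 arms. These counts are not read as tests, because that filter uses the 0 h libraries and so helps to set their slopes. In these members the changes at 72 h reversed for tryptophan (0.068 and 0.051 in the 150 and 200 arms), aspartate in the 150 arm (0.026), D-R pairs (-0.12 and -0.0071) and the mean position of tryptophan in the 200 arm (0.0073). The cause was not tested.

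Reads in all 5 libraries as the retention rule gave 109 members in untreated cultures at 24 h, 12 at 24 h and 7 at 72 h in the 150 arm; any read gave 51 and 17 for the last pair. For single members the log2 change reversed with TMM for peptide 12252 (0.026 and 1.18 at 72 h in the 150 and 200 arms) and peptide 12256 (1.57 in the 200 arm). The replicate block changed no other call of a comparison's count by over 1.5 times. The set's share of reads moved by less than its SD without any 1 barcode.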
